A study of Mus musculus with 18 samples.

Results

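The genes of mitosis and the spindle were followed across 18 RNA sequencing libraries of mouse CD8+ T cells. The set held 47 genes, chosen by symbol as known parts of the machinery of cell division, out of 19549 gene symbols in the 3 deposited tables. The choice was made with earlier results of these data known, so the counts below are not independent of it. All 47 genes were listed in each table, among 17738 genes for the cultured cells, 13537 for Nr4a1RFP+ and Tim-3+ cells and 13610 for Ly108+ cells. By role the set comprised 7 genes of mitotic entry, 4 of the chromosomal passenger complex, 9 of the spindle checkpoint and the anaphase-promoting complex, 7 of the kinetochore, 8 of the spindle, 6 of cytokinesis and 6 of chromosome structure.

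The study altered or sorted on Nr4a1, a nuclear receptor gene induced by T cell receptor signals, and compared cells in culture and in tumours. Nr4a1-OV cells (2 libraries) carried a retrovirus that raises Nr4a1, and RV-GFP cells (2 libraries) carried the retrovirus with green fluorescent protein. Cultured cells labelled Nr4a1 KO (2 libraries) and cultured Nr4a1 WT cells (2 libraries) started as naive cells activated on plates coated with antibodies to CD3 and CD28 at 2 μg/mL. All 4 cultured groups were restimulated with PMA and ionomycin for 2 h before RNA was taken. The tumour groups were OT-I cells, CD8+ T cells with a transgenic receptor for an ovalbumin peptide, sorted out of tumours. Nr4a1RFP+ TIL (2 libraries) and Tim-3+ TIL (2 libraries), both of WT genotype per the labels, were taken on day 21 after tumour inoculation. Ly108+ Nr4a1 KO TIL (3 libraries, Nr4a1-/-) and Ly108+ Nr4a1 WT TIL (3 libraries, Nr4a1+/+) were sorted on Ly108, a surface marker of stem-like cells. The labels give no age of the mice, no tumour line and no number of mice or cultures behind a library, so the p-values measure only the spread between these libraries, which may be technical.

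Cells build the proteins of division late in each cycle. Cdk1 with its cyclins starts mitosis, kinetochores tie chromosomes to spindle microtubules, the checkpoint holds anaphase until every chromosome is attached, and separase then frees the sister chromatids. Most of these genes are transcribed together: MuvB complexes bind a short promoter element, the cell cycle homology region, and the factor NF-Y binds CCAAT boxes beside it. T cells that leave rest after antigen contact divide rapidly, and these transcripts are widely used as a sign of division.

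Promoters of 37 of the 47 genes were found in the RefSeq promoter table (GRCm38.p6, 250 bases before to 50 after each start, 40 promoters). The core of the cell cycle homology region, TTTGAA or TTCGAA on either strand, stood in 32 of the 40 promoters (80%), against 19.2% of all 32851 promoters of the same length. CCAAT on either strand stood in 77.5% of them, against 37.4% of all promoters, and both together in 72.5%, against 7.53%. Of the 29 genes with a core, 27 had it starting no more than 60 bases before the start or after it. The share of all promoters with a core so placed is not given, so this position is no result about the set. A CCAAT site overlapped a TTTGAA site only in Cdca8, whose window lies inside the annotated gene. The 8-base element AAAGGTCA, which Nr4a1 binds as a monomer, stood on either strand in 0 of the 40 promoters and in 1.51% of all promoters. With so low a share in all promoters, 0 of 40 is near that background and no result about the set. A match is a description of letters in a window and not a bound site. The 5 promoters below are shown because 3 of their genes (Plk1, Cdc20 and Ccnb1) fell in both cultured comparisons while Cenpa and Pttg1 did not. They are written 5′ to 3′ on the gene's strand, with the core and the CCAAT boxes, on whichever strand they lay, in capitals.
Plk1: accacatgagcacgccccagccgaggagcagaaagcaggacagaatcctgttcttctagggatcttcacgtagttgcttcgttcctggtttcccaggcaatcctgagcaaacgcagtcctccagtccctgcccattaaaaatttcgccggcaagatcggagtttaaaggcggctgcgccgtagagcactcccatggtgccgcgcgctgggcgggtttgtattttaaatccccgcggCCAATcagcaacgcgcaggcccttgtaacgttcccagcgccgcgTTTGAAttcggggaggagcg
Cdc20: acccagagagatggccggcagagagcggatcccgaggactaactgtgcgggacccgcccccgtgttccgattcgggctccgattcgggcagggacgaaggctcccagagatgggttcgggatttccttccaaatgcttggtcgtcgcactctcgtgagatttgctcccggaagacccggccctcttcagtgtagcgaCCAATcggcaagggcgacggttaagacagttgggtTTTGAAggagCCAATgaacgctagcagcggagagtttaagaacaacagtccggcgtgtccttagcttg
Ccnb1: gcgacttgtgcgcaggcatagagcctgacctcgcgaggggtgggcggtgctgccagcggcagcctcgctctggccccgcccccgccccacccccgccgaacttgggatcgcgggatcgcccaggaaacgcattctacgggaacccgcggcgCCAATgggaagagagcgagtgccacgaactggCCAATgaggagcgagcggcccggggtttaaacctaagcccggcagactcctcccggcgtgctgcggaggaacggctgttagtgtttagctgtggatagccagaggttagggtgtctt
Cenpa: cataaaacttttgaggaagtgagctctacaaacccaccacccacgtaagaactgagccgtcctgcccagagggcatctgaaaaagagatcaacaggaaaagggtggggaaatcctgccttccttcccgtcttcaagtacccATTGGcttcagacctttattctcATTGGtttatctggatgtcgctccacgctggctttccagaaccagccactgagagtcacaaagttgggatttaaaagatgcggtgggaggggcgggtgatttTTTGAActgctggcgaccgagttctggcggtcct
Pttg1: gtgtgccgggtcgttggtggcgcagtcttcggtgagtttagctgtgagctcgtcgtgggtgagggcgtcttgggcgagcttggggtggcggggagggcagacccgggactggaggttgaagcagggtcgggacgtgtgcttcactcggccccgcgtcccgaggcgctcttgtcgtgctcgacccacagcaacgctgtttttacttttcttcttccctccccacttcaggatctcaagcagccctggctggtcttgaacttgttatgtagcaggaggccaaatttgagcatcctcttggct
Plk1 (chr7:122159185-122159484, plus strand) held 1 core and 1 CCAAT, and Cdc20 (chr4:118437294-118437593, minus strand) held 1 core between 2 CCAAT boxes. Ccnb1 (chr13:100786437-100786736, minus strand) held 2 CCAAT boxes and no core. Cenpa (chr5:30666636-30666935, plus strand) held 1 core and 2 inverted CCAAT boxes. Pttg1 (chr11:43425932-43426231, minus strand) held neither. This window lies inside the gene as annotated (chr11:43420250-43426251), so the bases before that annotated start were not read.

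The cultured libraries held 16769720 to 17119726 counts. Reads recovered from the RPKM steps summed to 17686600 to 24132000 in the Nr4a1RFP+ and Tim-3+ libraries and 15173300 to 15805300 in the Ly108+ libraries. These sums cover only genes with a length, 88.8% of those listed for Nr4a1RFP+ and Tim-3+ cells and 95.6% for Ly108+ cells. They are therefore not full totals like the culture counts. No pair of replicates agreed within counting error: chi-square divided by its degrees of freedom was 2.83 to 3.55 for replicate pairs in culture, 2.09 to 11.2 for Ly108+ pairs, 11.7 for the Nr4a1RFP+ pair and 43.5 for the Tim-3+ pair. Nr4a1 itself measured 1513 and 1447 RPKM in Nr4a1-OV libraries, against 565 and 625 RPKM in RV-GFP libraries. It was not lower under the KO labels: 102.9 and 102.6 RPKM in the cultured libraries labelled Nr4a1 KO, against 82.7 and 96.3 RPKM in Nr4a1 WT libraries, and 112, 101 and 102 RPKM in the Ly108+ libraries labelled Nr4a1 KO, against 53.9, 46.4 and 45.0 RPKM in their WT libraries. The labels do not give the deleted part of the gene, so this level does not check the genotype. Nr4a1 measured 113 and 115 RPKM in Nr4a1RFP+ libraries, against 132 and 125 RPKM in Tim-3+ libraries. The 8 T cell markers, Cd8a among them, summed to 1195 to 3225 RPKM in every library and Cd4 stayed between 0.0546 and 1.52 RPKM.

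**Figure D1:**
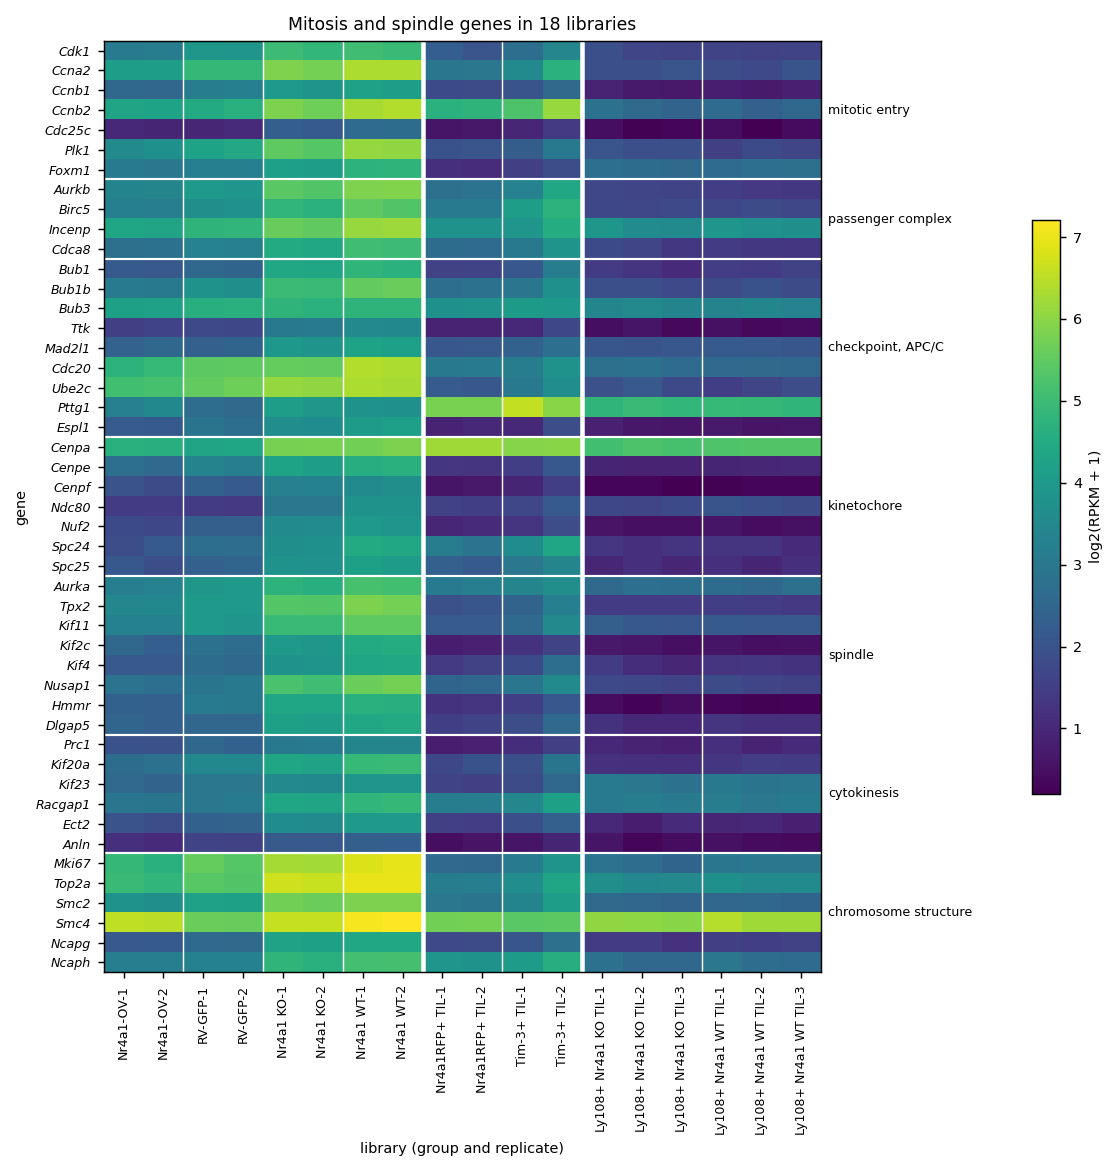
Level of each of the 47 genes (rows, by role) in each of the 18 libraries (columns, by group), as log2(RPKM + 1) on the colour scale. Thick white lines part the 3 tables, which were normalized separately; the cultured Nr4a1 WT group mean is the brightest for 45 of 47 genes, while Smc4, Cenpa and Pttg1 stay bright in tumour libraries.

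Across the 8 groups the set was highest in cultured Nr4a1 WT cells and lowest in Ly108+ cells. The median gene of the set measured 6.10 RPKM in Nr4a1-OV, 8.41 in RV-GFP, 19.1 in the libraries labelled Nr4a1 KO and 26.3 in cultured Nr4a1 WT, 3.52 in Nr4a1RFP+ and 7.69 in Tim-3+ cells, and 2.31 in Ly108+ Nr4a1 KO and 2.17 in Ly108+ Nr4a1 WT cells. Cultured Nr4a1 WT held the highest group mean for 45 of 47 genes. The exceptions were Cenpa, the centromeric histone H3 variant, highest in Nr4a1RFP+ cells, and Pttg1, which encodes securin, highest in Tim-3+ cells. The lowest group mean was in Ly108+ Nr4a1 KO cells for 18 genes and in Ly108+ Nr4a1 WT cells for 19. Levels in different tables are set side by side without a test, because the tables were normalized separately.

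Mean log2(RPKM + 1) over the 47 genes gives the same picture per library. It was 3.027 and 3.001 in Nr4a1-OV, 3.40 and 3.39 in RV-GFP, 4.52 and 4.46 in the libraries labelled Nr4a1 KO and 4.92 and 4.92 in cultured Nr4a1 WT. In tumours it was 2.36 and 2.38 in Nr4a1RFP+ cells, against 2.71 and 3.31 in Tim-3+ cells. In Ly108+ cells it was 2.00, 1.92 and 1.86 under the KO label, against 1.97, 1.92 and 1.93 in WT. The 2 Tim-3+ libraries stood farther apart than the replicates of any other group. For 30 DNA replication genes, the group means of the same measure were 3.04 in Nr4a1-OV and 3.54 in RV-GFP, 4.66 under the KO label and 4.90 in cultured WT, 3.30 in Nr4a1RFP+ and 3.76 in Tim-3+, and 2.99 in Ly108+ Nr4a1 KO and 2.95 in Ly108+ Nr4a1 WT.

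The first comparison asks what extra Nr4a1 from a retrovirus does to the set. Most of the set fell in Nr4a1-OV cells: by edgeR's quasi-likelihood test at an adjusted p under 0.05, 36 of 47 genes were lower, while 29.6% of all 14994 genes tested were. A further 3 genes were higher, Smc4, Pttg1 and Cenpa, while 31.3% of all genes were; in either direction 60.9% of all genes passed. The median log2 fold change of the set was -0.53, against 0.02 over all genes. Both Nr4a1-OV libraries lay below both RV-GFP libraries for 41 genes and above them for 3, against 38.8% and 40.8% of all genes. In bulk RNA, fewer dividing cells and less RNA per cell cannot be told apart.

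Among the genes of mitotic entry 6 of 7 fell. Cdk1, the kinase that drives entry, measured 7.38 and 7.93 RPKM in Nr4a1-OV, against 14.2 and 13.5 RPKM in RV-GFP libraries (log2 fold change -0.85, SE 0.076, adjusted p = 3.58e-09). Ccna2, the cyclin of S phase and late cycle, measured 16.6 and 16.45 RPKM in Nr4a1-OV, against 28.3 and 28.1 RPKM in RV-GFP (-0.77, SE 0.059, adjusted p = 3.23e-10). Ccnb1, the partner of Cdk1, measured 4.91 and 4.70 RPKM in Nr4a1-OV, against 7.89 and 8.31 RPKM in RV-GFP (-0.75). In each of these the groups were clearly apart, and the replicates of a group lay close together. Foxm1, a transcription factor of late cycle genes, moved less, with 7.30 and 7.06 RPKM in Nr4a1-OV, against 8.365 and 8.45 RPKM in RV-GFP (-0.22, SE 0.064, adjusted p = 0.0048). Cdc25c, the phosphatase that activates Cdk1, was near 1 RPKM in both groups and did not pass (-0.08, SE 0.16).

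All 4 genes of the chromosomal passenger complex, which corrects faulty attachments and guides cytokinesis, fell by similar amounts. Aurkb, its kinase, measured 9.34 and 9.58 RPKM in Nr4a1-OV, against 14.8 and 13.9 RPKM in RV-GFP (-0.60, SE 0.074, adjusted p = 4.63e-07). Birc5, which encodes survivin, measured 8.41 and 8.14 RPKM in Nr4a1-OV, against 11.8 and 12.4 RPKM in RV-GFP (-0.54). Incenp, the scaffold, and Cdca8, which encodes borealin, gave -0.47 and -0.52.

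In the checkpoint and anaphase group 6 of 9 fell and 1 rose. Bub1b, which encodes the checkpoint protein BubR1, measured 7.74 and 7.18 RPKM in Nr4a1-OV, against 12.7 and 12.02 RPKM in RV-GFP (-0.73, SE 0.071, adjusted p = 1.31e-08). Cdc20, the activator of the anaphase-promoting complex, measured 25.9 and 28.6 RPKM in Nr4a1-OV, against 42.6 and 43.6 RPKM in RV-GFP (-0.66). Separase and its inhibitor moved apart. Espl1, the separase gene, measured 3.77 and 3.54 RPKM in Nr4a1-OV, against 6.42 and 5.67 RPKM in RV-GFP (-0.72, SE 0.075, adjusted p = 3.23e-08). Pttg1, the securin gene, measured 8.59 and 10.03 RPKM in Nr4a1-OV, against 5.50 and 5.21 RPKM in RV-GFP (0.80, SE 0.12, adjusted p = 5.17e-06). Every Nr4a1-OV library was below every RV-GFP library for Espl1 and above it for Pttg1. Mad2l1 (0.10) and the checkpoint kinase gene Ttk (-0.24) did not pass.

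At the kinetochore 5 of 7 fell, and the 4 genes of the Ndc80 complex, which binds microtubules, did not move together. Nuf2 measured 2.46 and 2.28 RPKM in Nr4a1-OV, against 4.05 and 4.05 RPKM in RV-GFP (-0.77, SE 0.089, adjusted p = 1.69e-07). Spc24 and Spc25 also fell (-0.82 and -0.51). Ndc80 measured 1.74 and 1.68 RPKM in Nr4a1-OV, against 1.735 and 1.605 RPKM in RV-GFP, with overlapping libraries (0.04, SE 0.11, adjusted p = 0.773). The kinesin gene Cenpe fell (-0.67, SE 0.078). Cenpa measured 24.2 and 23.2 RPKM in Nr4a1-OV, against 18.6 and 19.02 RPKM in RV-GFP (0.34, SE 0.057, adjusted p = 2.82e-05), both Nr4a1-OV libraries being the higher.

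Of the spindle genes 6 of 8 fell. Kif11, the kinesin that pushes spindle poles apart, measured 8.70 and 8.68 RPKM in Nr4a1-OV, against 14.98 and 13.5 RPKM in RV-GFP (-0.71, SE 0.062, adjusted p = 2.44e-09). Hmmr, a microtubule-binding spindle protein gene, measured 4.18 and 4.10 RPKM in Nr4a1-OV, against 7.71 and 7.215 RPKM in RV-GFP (-0.85). The bundling protein genes Nusap1 (-0.18) and Dlgap5 (-0.11) did not pass. Of the cytokinesis genes 5 of 6 fell, led by the central spindle kinesin gene Kif20a, with 5.435 and 6.14 RPKM in Nr4a1-OV, against 10.13 and 10.09 RPKM in RV-GFP (-0.80, SE 0.076, adjusted p = 8.69e-09), and the microtubule bundler gene Prc1 (-0.63, SE 0.079). The 2 subunits of centralspindlin differed in call: Kif23 fell (-0.55, SE 0.070), while Racgap1 measured 6.69 and 6.58 RPKM in Nr4a1-OV, against 7.11 and 7.50 RPKM in RV-GFP (-0.13, adjusted p = 0.0744). Racgap1 passed with RLE scaling (-0.17, adjusted p = 0.0237), with a stricter filter, 1 CPM or more in all libraries of some group (-0.17, adjusted p = 0.0211) and without RV-GFP replicate 1 (-0.21, adjusted p = 0.0355).

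Among the genes of chromosome structure the 2 core subunits of condensin, the ring that compacts mitotic chromosomes, went opposite ways. Smc4 (chr3:69004738-69034623, GRCm38, plus strand) measured 93.1 and 87.9 RPKM in Nr4a1-OV, against 48.9 and 47.1 RPKM in RV-GFP (0.92, SE 0.054, adjusted p = 5.03e-12). Its partner Smc2 measured 13.03 and 12.01 RPKM in Nr4a1-OV, against 17.6 and 17.4 RPKM in RV-GFP (-0.48, SE 0.060, adjusted p = 5.87e-07). Smc4 was thus 7.23 ± 0.13 times the level of Smc2 per length in Nr4a1-OV, against 2.74 ± 0.053 times in RV-GFP (SD, n = 2 each). Of the condensin I subunits Ncapg fell (-0.53) and Ncaph did not pass (-0.10). Mki67, the gene of the proliferation antigen Ki-67, measured 28.5 and 23.99 RPKM in Nr4a1-OV, against 46.2 and 40.25 RPKM in RV-GFP (-0.72, SE 0.073, adjusted p = 2.74e-08). Top2a, the topoisomerase gene, measured 29.15 and 27.4 RPKM in Nr4a1-OV, against 41.4 and 39.1 RPKM in RV-GFP (-0.51).

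Other genes of the cell cycle, from lists by function, were read beside the set in the same comparison, in which 29.6% of all genes fell and 31.3% rose. Of 30 DNA replication genes 23 fell, among them the helicase subunit gene Mcm3 (-1.06, SE 0.053). Of 31 other centromere and kinetochore genes 16 fell and 5 rose, and of 25 other spindle and cytokinesis genes 19 fell and 2 rose. Of 20 other mitotic kinases and regulators 14 fell, among them the phosphatase gene Cdc25a (-0.80), and 1 rose, its relative Cdc25b (0.62). Among 14 anaphase-promoting complex subunits 5 fell and 3 rose, with Anapc2 at 0.86. Of 15 other condensin and cohesin genes 9 fell and 2 rose, and of 20 MuvB, E2F and RB family genes 10 fell and 5 rose. Among 14 genes of G1 cyclins, their kinases and CDK inhibitors 5 fell and 5 rose. The shares that fell among the anaphase-promoting complex subunits and the G1 genes are near that of all genes. So are the shares that rose among the G1 genes and the MuvB, E2F and RB family genes, so these counts are no result about those lists. The G1 genes that rose included the CDK inhibitor genes Cdkn1b (1.99, SE 0.071), Cdkn2c (1.63) and Cdkn2d (1.21). The inhibitor gene Cdkn1a (-0.25) and the kinase gene Cdk4 (-0.62) were among those that fell. Of the MuvB, E2F and RB family genes, Tfdp2 (1.81), Rbl2 (1.65) and Rb1 (1.16) were among those that rose. E2f1 (-0.86), Tfdp1 (-0.80) and E2f4 (-0.55) were among those that fell. Each gene named here passed at an adjusted p under 0.05 by edgeR. Markers of T cells and of other cells changed in both directions. Of 8 T cell markers 3 rose and 2 fell, of 3 CD4 T cell markers 1 rose and 1 fell, both B cell markers tested rose (Cd79a and Cd79b), of 2 myeloid markers tested 1 fell, the NK cell marker tested rose, and of 3 tumour and stromal markers tested 2 rose (Pmel and Pecam1). Cd40lg, on the CD4 T cell list and also made by activated CD8+ cells, measured 5.49 and 5.60 RPKM in Nr4a1-OV, against 37.4 and 37.4 RPKM in RV-GFP, while Zbtb7b, a CD4 T cell factor gene, measured 3.755 and 3.797 RPKM in Nr4a1-OV, against 1.71 and 1.95 RPKM in RV-GFP. Eomes, on the NK cell list and also a T cell factor, measured 45.4 and 49.1 RPKM in Nr4a1-OV, against 23.98 and 24.97 RPKM in RV-GFP. The 3 myeloid markers listed of 8 summed to 2.75 to 2.81 RPKM in Nr4a1-OV, against 3.935 to 4.46 RPKM in RV-GFP. Their part in the result was not tested.

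**Figure D2:**
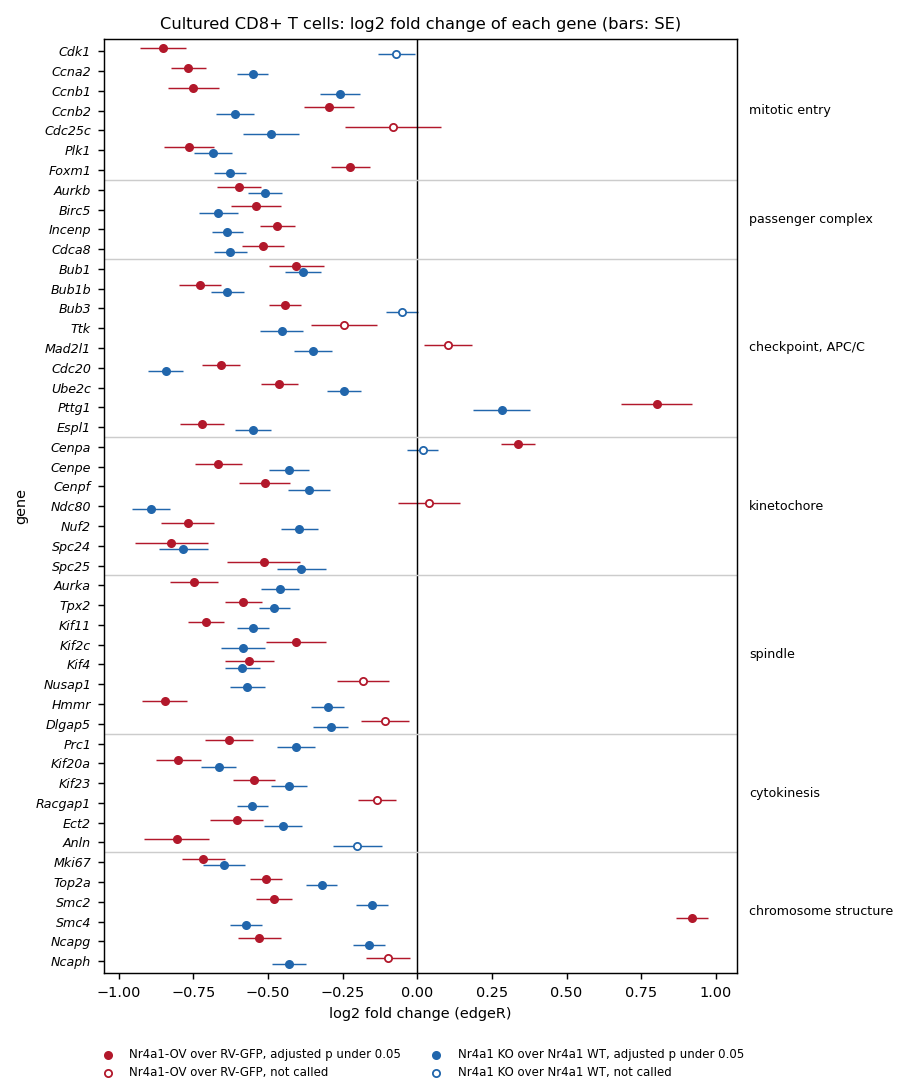
Log2 fold change of each of the 47 genes (rows, by role) in Nr4a1-OV over RV-GFP cells (red) and in cultured cells labelled Nr4a1 KO over Nr4a1 WT cells (blue), with bars of 1 SE; filled points passed an adjusted p under 0.05 by edgeR. Most points lie left of 0 in both colours, 36 red and 42 blue ones passing as lower; Smc4 is at 0.92 in red and -0.57 in blue.

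In culture, the libraries labelled Nr4a1 KO were set against Nr4a1 WT libraries. Here too most of the set fell: 42 of 47 genes were lower under the KO label by edgeR, while 21.6% of all 14994 genes were. A single gene, Pttg1, was higher, while 18.4% of all genes were; in either direction 40.1% passed. The median log2 fold change was -0.46, against -0.03 over all genes. Both libraries labelled Nr4a1 KO lay below both WT libraries for 44 genes and above them for 1, against 37.2% and 31.8% of all genes. This comparison shares no library with the retroviral one, and 33 genes were lower in both, 91.7% of those lower in Nr4a1-OV cells and 78.6% of those lower under the KO label. With 36 and 42 of 47 genes lower, most of this overlap follows from the counts alone. The share of all genes lower in both is not given, so the overlap is no result about the set.

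The genes of mitotic entry fell with the exception of Cdk1. Foxm1 measured 16.81 and 16.6 RPKM under the KO label, against 25.5 and 26.15 RPKM in WT (-0.63, SE 0.053, adjusted p = 6.00e-09). Ccna2 measured 57.1 and 53.0 RPKM under the KO label, against 81.3 and 80.1 RPKM in WT (-0.55, SE 0.052). Cdk1 measured 31.05 and 27.9 RPKM under the KO label, against 32.5 and 29.4 RPKM in WT, with overlapping libraries (-0.07, SE 0.063, adjusted p = 0.407). Its partner Ccnb1 fell by 0.26 on the log2 scale (14.8 and 13.3 RPKM under the KO label, against 17.45 and 16.2 RPKM in WT, adjusted p = 0.00392), a call that did not hold when Nr4a1 KO replicate 2 (-0.19, adjusted p = 0.0853) or Nr4a1 WT replicate 1 (-0.20, adjusted p = 0.0557) was left out.

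All 4 passenger complex genes fell again, between -0.67 (Birc5) and -0.51 (Aurkb). Birc5 measured 27.2 and 24.6 RPKM under the KO label, against 43.7 and 38.6 RPKM in WT (SE 0.065, adjusted p = 5.11e-08), and Aurkb 41.8 and 38.6 RPKM, against 56.6 and 58.1 RPKM in WT. In the checkpoint and anaphase group 7 of 9 fell. Cdc20 measured 45.7 and 45.4 RPKM under the KO label, against 83.2 and 80.4 RPKM in WT (-0.84, SE 0.057, adjusted p = 1.92e-10). Bub1b measured 30.75 and 29.5 RPKM under the KO label, against 45.6 and 48.2 RPKM in WT (-0.64, SE 0.056). Bub3, which binds Bub1 and BubR1, did not pass (-0.05, SE 0.052). Pttg1 measured 16.6 and 13.98 RPKM under the KO label, against 13.01 and 12.2 RPKM in WT (0.28, SE 0.095, adjusted p = 0.0216). This call for Pttg1 did not hold with DESeq2 (0.29, adjusted p = 0.0916), nor when Nr4a1 KO replicate 1 (0.15, adjusted p = 0.323) or Nr4a1 WT replicate 2 (0.23, adjusted p = 0.138) was left out.

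All 4 Ndc80 complex genes fell under the KO label. Ndc80 measured 7.09 and 6.87 RPKM under the KO label, against 12.8 and 13.1 RPKM in WT (-0.89, SE 0.063, adjusted p = 3.82e-10), the lowest fold change of the set in this comparison. Spc24 measured 11.9 and 12.2 RPKM under the KO label, against 21.3 and 20.2 RPKM in WT (-0.78, SE 0.082). Nuf2 and Spc25 gave -0.40 and -0.39. Cenpa measured 54.2 and 55.1 RPKM under the KO label, between the 2 WT libraries at 52.0 and 56.05 RPKM (0.02, SE 0.052).

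All 8 spindle genes fell, among them Kif11 with 29.3 and 29.85 RPKM under the KO label, against 43.2 and 43.3 RPKM in WT (-0.55, SE 0.054, adjusted p = 5.14e-08), and the chromokinesin gene Kif4 (-0.59, SE 0.059). Of the cytokinesis genes 5 of 6 fell, with Kif20a at -0.67 and Racgap1 at -0.55 (19.1 and 18.8 RPKM under the KO label, against 27.35 and 28.3 RPKM in WT, SE 0.052, adjusted p = 3.03e-08), while Anln, the anillin gene, did not pass (-0.20, adjusted p = 0.0585). All 6 genes of chromosome structure fell. Smc4 measured 96.4 and 95.3 RPKM under the KO label, against 138.1 and 147.4 RPKM in WT (-0.57, SE 0.052, adjusted p = 1.73e-08), and Smc2 fell less (-0.15, SE 0.052, adjusted p = 0.0252). Mki67 measured 76.4 and 74.6 RPKM under the KO label, against 113 and 123.6 RPKM in WT (-0.65), and Top2a 102.5 and 98.6 RPKM under the KO label, against 125.7 and 125.5 RPKM in WT (-0.32). Without 1 library in turn, 39 to 42 of the set remained lower. Smc2 and Ncapg were lost without Nr4a1 KO replicate 2 or either WT replicate.

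The wider lists of cell cycle genes were read beside the set under the KO label as well, where 21.6% of all genes fell and 18.4% rose. Of 31 other centromere and kinetochore genes 23 fell, of 25 other spindle and cytokinesis genes 21 fell and 1 rose, of 15 other condensin and cohesin genes 11 fell and 1 rose, and of 30 DNA replication genes 22 fell. Of 20 other mitotic kinases and regulators 14 fell and 1 rose, of 14 anaphase-promoting complex subunits 9 fell and 1 rose, and of 20 MuvB, E2F and RB family genes 9 fell and 2 rose. The condensin I subunit gene Ncapd2 gave -0.88 (SE 0.051) and the microtubule-destabilizing protein gene Stmn1 -0.84 (SE 0.062), while the tubulin gene Tuba1c rose (0.94, SE 0.069). Among 14 genes of G1 cyclins, their kinases and CDK inhibitors 6 rose and 4 fell: Ccnd2, a D-type cyclin gene, gave 0.85 (SE 0.049) and the inhibitor gene Cdkn1a 0.61, against -0.93 for Cdkn2c. Each of these passed at an adjusted p under 0.05 by edgeR. Beside these changes, Cd68, on the myeloid list, measured 12.2 and 12.9 RPKM under the KO label, against 4.30 and 4.64 RPKM in WT, with the myeloid markers Lyz2 and Itgam at or under 0.221 RPKM in each of these 4 libraries. Eomes, on the NK cell list and also a T cell factor, measured 62.6 and 57.25 RPKM under the KO label, against 18.6 and 19.8 RPKM in WT. Of 8 T cell markers 3 rose and 2 fell, of 3 CD4 T cell markers 1 rose and 1 fell, and of 3 tumour and stromal markers tested 2 fell. Their part in the result was not tested.

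**Figure D3:**
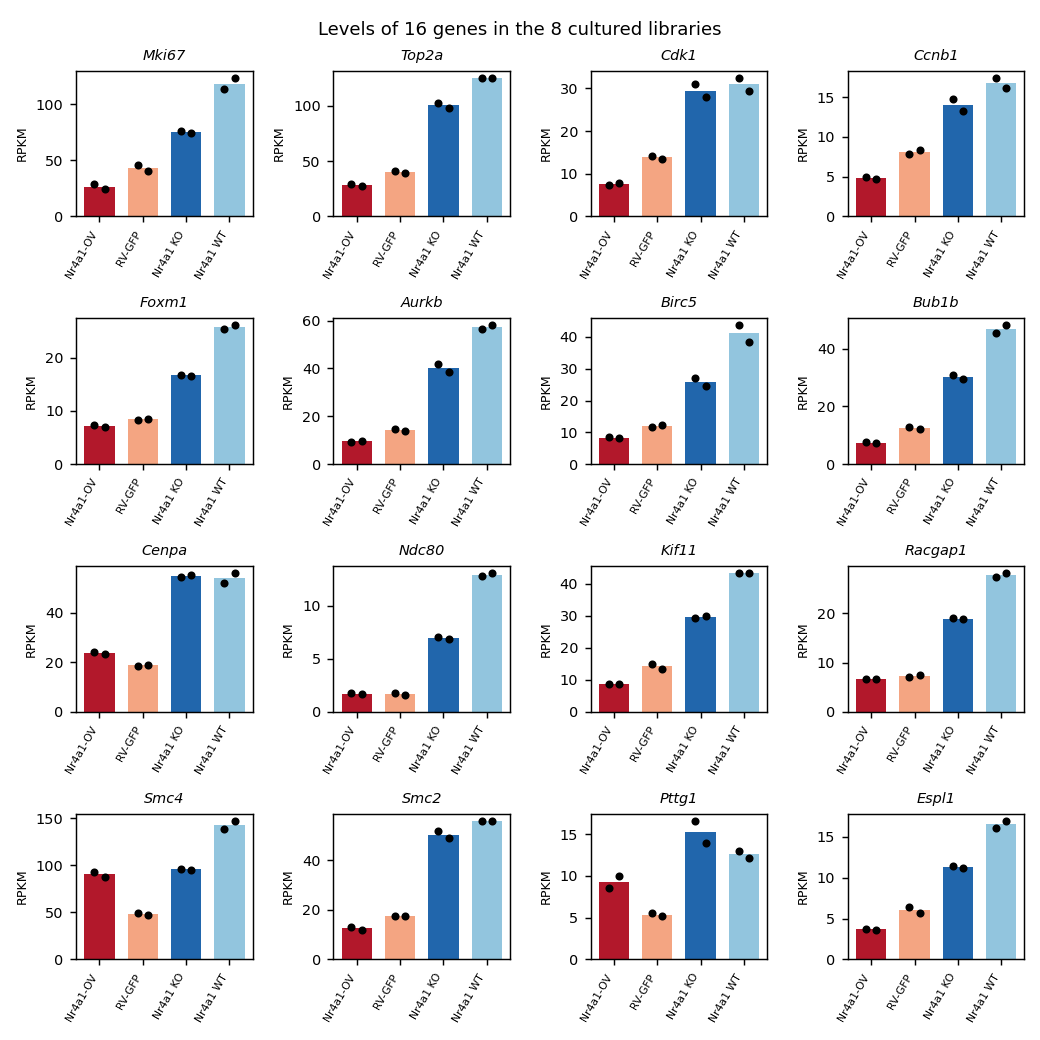
RPKM of 16 genes in the 8 cultured libraries; bars are group means from 0, points are the 2 libraries of a group. Mki67, Aurkb, Bub1b and Kif11 are lowest in Nr4a1-OV and highest in Nr4a1 WT, Smc4 and Pttg1 are higher in Nr4a1-OV than in RV-GFP, and Ndc80 is at 1.605 to 1.743 RPKM in both retroviral groups.

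The difference of the 2 effects was tested in the same model, as the Nr4a1-OV effect minus the effect of the KO label. It was positive for 10 genes and negative for 12, while 29.6% and 26.2% of all genes passed in these directions and 55.8% in either, so the counts are no result about the set. Single genes did differ. The effect on Smc4 was 0.92 in Nr4a1-OV cells and -0.57 under the KO label (difference 1.49, SE 0.075, adjusted p = 6.79e-13). Ndc80 followed with 0.04 and -0.89 (difference 0.93, SE 0.12, adjusted p = 1.41e-06). On the other side stood Cdk1, with -0.85 and -0.07 (difference -0.78, SE 0.099, adjusted p = 7.52e-07), Anln (-0.60), Hmmr (-0.55), Ccnb1 (-0.49) and Bub3 (-0.39). Positive differences were also found for Mad2l1 (0.45), Racgap1 (0.42), Foxm1 (0.40) and Cenpa (0.32). For the passenger complex genes the differences ran from -0.09 (SE 0.093) for Aurkb to 0.17 (SE 0.079) for Incenp, and none of the 4 passed in edgeR. For Bub1b (-0.09, SE 0.090) and Mki67 (-0.07, SE 0.10) the difference was under its SE or about equal to it. The difference for Nusap1 (0.39) was lost without RV-GFP replicate 1 (0.27, adjusted p = 0.0749). That for Top2a (-0.19, adjusted p = 0.0397) was lost without Nr4a1-OV replicate 2, RV-GFP replicate 1, Nr4a1 KO replicate 1 or either Nr4a1 WT replicate (adjusted p = 0.0535 to 0.166). That for Kif11 (-0.16, adjusted p = 0.107) passed with RLE scaling (-0.21, adjusted p = 0.0381), the 1 CPM filter (-0.22, adjusted p = 0.0233) and without RV-GFP replicate 2 (-0.30, adjusted p = 0.00852).

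The 2 control cultures were also far apart. Against cultured Nr4a1 WT cells, all 47 genes were lower in RV-GFP cells by edgeR, while 38.6% of all genes were lower, 32.4% higher and 71% either. The median log2 fold change of the set was -1.67, against -0.07 over all genes. Ndc80 (-2.95, SE 0.080), Nusap1 (-2.87, SE 0.072) and the checkpoint kinase gene Bub1 (-2.43, SE 0.072) lay at the low end. At the other end lay Cdc20 (-0.92), Ube2c (-0.74) and Bub3 (-0.14, SE 0.053, adjusted p = 0.02). Both RV-GFP libraries lay below both WT libraries for all 47 genes, against 46% of all genes, and above them for none, against 38.9%. The call for Bub3 was lost under 7 of the alternatives, RLE scaling (-0.08, adjusted p = 0.158) and the fits without RV-GFP replicate 1 (-0.07, adjusted p = 0.395), RV-GFP replicate 2 (-0.10, adjusted p = 0.22) or Nr4a1 WT replicate 1 (-0.14, adjusted p = 0.0523) among them, which left 46 lower. The virus and the culture procedure differ together between these groups and cannot be told apart, and the comparison shares its libraries with both others in culture. Marker genes differed too: of 8 T cell markers 3 were higher in RV-GFP and 3 lower, of 3 CD4 T cell markers 1 was higher and 1 lower, the NK cell marker tested was higher, and 1 of 2 B cell and all 3 tumour and stromal markers tested were lower. Cd40lg measured 37.36 and 37.43 RPKM in RV-GFP, against 1.47 and 1.365 RPKM in WT (4.72). Pecam1, on the tumour and stromal list, measured 5.26 and 5.25 RPKM in RV-GFP, against 17.8 and 20.56 RPKM in WT (-1.86). Their part in the result was not tested. Of the genes with a promoter in the table, 25 of 29 with TTTGAA or TTCGAA fell in Nr4a1-OV cells and 4 of 8 without (Ccnb1, Birc5, Cenpe and Nuf2 fell; Mad2l1, Pttg1, Nusap1 and Ncaph did not). Under the KO label 25 of 29 and 7 of 8 fell, and between the control cultures 29 of 29 and 8 of 8, which describes these genes and was not tested. The windows read for Pttg1, Cdca8, Kif2c and Kif4 lie inside the annotated genes, so their letters may not be those of the promoters.

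In tumours, sorting on the Nr4a1 reporter or on Tim-3, a marker of exhausted cells, asks how Nr4a1RFP+ cells differ from Tim-3+ cells. The set was lower in Nr4a1RFP+ cells: of 44 genes that passed the filter of 1 RPKM, 12 were lower by limma at an adjusted p under 0.05, while 8.61% of all 9508 genes tested were. None passed as higher in limma (1, Smc4, at an unadjusted p under 0.05), edgeR or DESeq2 on recovered reads, while 9.08% of all genes did in limma. The 2 Nr4a1RFP+ libraries were both lower than the 2 Tim-3+ libraries for 44 of all 47 genes and both higher for 2, against 31.4% and 29.8% of the genes tested; 17.7% of the genes tested passed in either direction. Those not tested were Cdc25c, Cenpf and Anln. The Tim-3+ libraries disagreed with each other: replicate 2 exceeded replicate 1 for 45 of 47 genes, by a median ratio of 1.76, against 1.021 over the genes tested, while the ratio between the Nr4a1RFP+ libraries was 1.04. The count of lower genes varied with the libraries and the method used. It was 40 without Tim-3+ replicate 1, 20 without Tim-3+ replicate 2, 4 without Nr4a1RFP+ replicate 1 and 2 without Nr4a1RFP+ replicate 2, with the lone library of a group assumed to vary like the others. It was 31 by edgeR and 38 by DESeq2 on recovered reads, and 3 with no filter.

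Birc5 and Ube2c, the ubiquitin-conjugating enzyme gene of the anaphase-promoting complex, were lower in each of these settings. Birc5 measured 7.48 and 7.46 RPKM in Nr4a1RFP+, against 16.6 and 25.7 RPKM in Tim-3+ libraries (-1.36 on the log2(RPKM + 1) scale, which understates changes of low genes, SE 0.19, adjusted p = 0.00349). Ube2c measured 3.71 and 3.32 RPKM in Nr4a1RFP+, against 7.215 and 11.4 RPKM in Tim-3+ (-1.16, SE 0.20, adjusted p = 0.00735). Both Nr4a1RFP+ libraries were alike, and the Tim-3+ libraries were higher but unequal. Of the Ndc80 complex, Spc25 measured 4.09 and 3.54 RPKM in Nr4a1RFP+, against 6.93 and 9.49 RPKM in Tim-3+ (-0.92, SE 0.16, adjusted p = 0.00801), and Spc24 7.90 and 6.34 RPKM, against 11.2 and 19.6 RPKM in Tim-3+ (-0.97, adjusted p = 0.0337). Ndc80, at 1.99 and 1.84 RPKM in Nr4a1RFP+, against 2.265 and 3.59 RPKM in Tim-3+, did not pass (-0.41, adjusted p = 0.153).

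Cdk1 measured 3.885 and 3.17 RPKM in Nr4a1RFP+, against 5.66 and 9.96 RPKM in Tim-3+ (-0.92, SE 0.23, adjusted p = 0.0336). Foxm1 measured 1.24 and 1.13 RPKM in Nr4a1RFP+, against 1.90 and 2.70 RPKM in Tim-3+ (-0.59, adjusted p = 0.0303). Ccnb1 measured 2.46 and 2.57 RPKM in Nr4a1RFP+, against 3.05 and 5.24 RPKM in Tim-3+ and did not pass in limma (-0.52, adjusted p = 0.128), though it did by DESeq2 on recovered reads (adjusted p = 0.0282). The groups did not overlap for any of these genes. Mki67 measured 5.02 and 4.84 RPKM in Nr4a1RFP+, against 7.33 and 13.3 RPKM in Tim-3+ (-0.88, SE 0.23, adjusted p = 0.0436), and Top2a 8.06 and 8.26 RPKM, against 11.5 and 19.1 RPKM in Tim-3+ (-0.79, adjusted p = 0.045). Kif2c, a kinesin gene that takes microtubules apart (-0.64), Nusap1 (-0.75), Ect2, the activator of RhoA in cytokinesis (-0.62), and the cyclin B2 gene Ccnb2 (-0.98) were also lower. Cdk1, Foxm1, Mki67, Top2a, Kif2c, Nusap1 and Ect2 each lost the call with no filter (adjusted p = 0.0586 to 0.0899) and without either Nr4a1RFP+ library (adjusted p = 0.051 to 0.176). Ccnb2 lost its call in the same settings. Spc24 lost it with no filter (adjusted p = 0.075) and without Nr4a1RFP+ replicate 2 (adjusted p = 0.146), and Spc25 without Nr4a1RFP+ replicate 2 (adjusted p = 0.058).

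Aurkb measured 5.94 and 6.28 RPKM in Nr4a1RFP+, against 8.95 and 20.2 RPKM in Tim-3+, a difference as large as that of Spc24 that did not pass in limma (-1.03, SE 0.31, adjusted p = 0.066). On recovered reads it passed by edgeR (-1.27, adjusted p = 0.023) and by DESeq2 (adjusted p = 7.48e-05). Kif11 (-0.84, SE 0.26) and Racgap1 (-0.66, SE 0.23) were likewise lower in both Nr4a1RFP+ libraries without passing in limma, and passed by edgeR on recovered reads (adjusted p = 0.0235 for Kif11 and 0.0382 for Racgap1) and by DESeq2 (adjusted p = 1.69e-04 and 0.00265). Without Tim-3+ replicate 1 the differences were -1.58 for Aurkb, -1.28 for Kif11, -1.03 for Racgap1, -0.93 for Bub1b, -0.83 for Ccnb1 and -0.66 for Ndc80. Without Tim-3+ replicate 2 they were -0.49 for Aurkb and -0.40 for Kif11. With 1 Tim-3+ library left, the spread came from the Nr4a1RFP+ pair alone, so no call is given for these fits. Both Nr4a1RFP+ libraries were above both Tim-3+ libraries only for Smc4 and Cenpa. Smc4 measured 52.1 and 52.45 RPKM in Nr4a1RFP+, against 41.5 and 42.4 RPKM in Tim-3+ (0.31, SE 0.11, adjusted p = 0.0935). Cenpa measured 72.8 and 73.05 RPKM in Nr4a1RFP+, against 60.85 and 61.3 RPKM in Tim-3+ (0.25, SE 0.11, adjusted p = 0.163).

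Among the wider lists, 9 of 23 other spindle and cytokinesis genes tested were lower in Nr4a1RFP+ cells, among them the kinesin gene Kif22 (-0.98), Stmn1 (-1.12) and the tubulin gene Tubb5 (-0.59), with 5 of 31 other centromere and kinetochore genes, among them Ska1 (-1.09), and 5 of 30 DNA replication genes, among them Pcna (-0.53), against 8.61% of all genes tested. Lower were also 1 of 14 other condensin and cohesin genes, 3 of 18 MuvB, E2F and RB family genes, 3 of 20 other mitotic kinases and regulators, of which 1 was higher, and 4 of 12 G1 genes. Of the 14 anaphase-promoting complex subunits 0 passed in limma (1 higher and 1 lower at an unadjusted p under 0.05), while 1 was higher and 1 lower by edgeR and by DESeq2 on recovered reads. The CDK inhibitor gene Cdkn1a was lower too (-1.54, SE 0.12, adjusted p = 2.97e-04), and the kinase gene Wee1, which restrains Cdk1, was higher (0.69, SE 0.11, adjusted p = 0.00638). The 8 T cell markers summed to 2261 to 2444 RPKM in Nr4a1RFP+, against 2667 to 3225 RPKM in Tim-3+ libraries. The 8 myeloid markers summed to 44.2 to 53.2 RPKM in Nr4a1RFP+, against 21.1 to 23.2 RPKM in Tim-3+, most of it Cd68, with the macrophage receptor genes Csf1r and Adgre1 at or under 0.131 RPKM. Of the 3 myeloid markers tested Cd68 was higher and Tyrobp lower, at 1.009 and 0.706 RPKM in Nr4a1RFP+, against 3.3 and 2.35 RPKM in Tim-3+. The B cell marker tested (Cd79b) and both tumour and stromal markers tested (Pmel and Pecam1) were higher. Hemoglobin and other erythroid markers summed to 1.84 and 70.1 RPKM in the Nr4a1RFP+ libraries, against 23.2 to 35.6 RPKM in Tim-3+. Their part in the result was not tested.

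**Figure D4:**
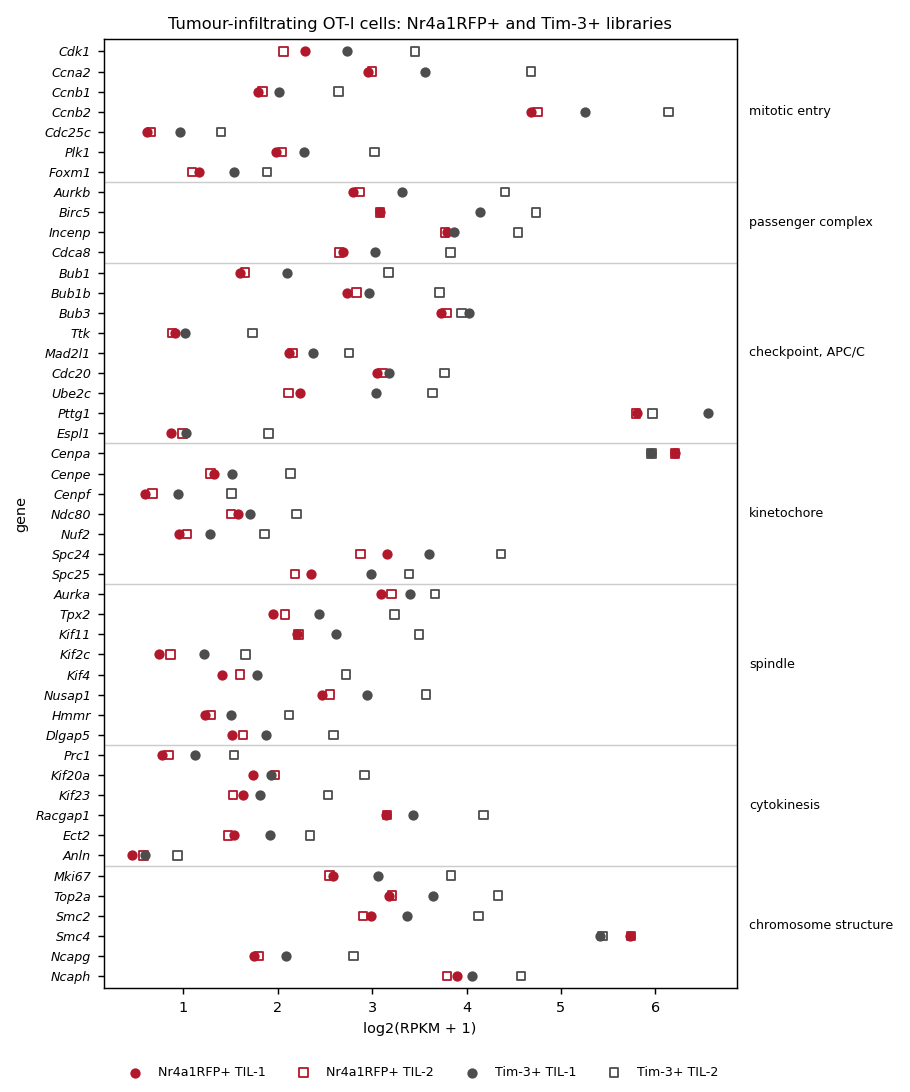
Level of each of the 47 genes (rows, by role) as log2(RPKM + 1) in the Nr4a1RFP+ libraries (red) and the Tim-3+ libraries (grey); replicate 1 is a filled circle and replicate 2 an open square. The red marks lie left of both grey marks for 44 genes, Tim-3+ replicate 2 lies to the right of replicate 1 for 45, and Smc4 and Cenpa have red marks to the right.

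Ly108+ cells were compared by Nr4a1 label within tumours. No gene of the set passed in limma: of 36 tested, 0 were lower and 0 higher, while 4.45% of all 11265 genes tested passed, 2.41% lower and 2.04% higher, and the count is near that background. At an unadjusted p under 0.05, 4 genes were lower under the KO label (Smc4, Mki67, Cenpa and Kif20a) and 3 higher (Plk1, Aurkb and Cdc20). On recovered reads edgeR and DESeq2 each called Smc4 and Mki67 lower and none higher. The median difference of the set was 0.00 on the log2(RPKM + 1) scale, and SEs of single genes ran from 0.050 to 0.13, so that small differences could not be seen. The 11 genes not tested (Ccnb1, Cdc25c, Ttk, Espl1, Cenpe, Cenpf, Nuf2, Kif2c, Hmmr, Prc1 and Anln) had a level near or under 1 RPKM. All 3 libraries labelled Nr4a1 KO lay below all WT libraries for 7 genes and above them for 4, against 15% and 14.5% of all genes.

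Smc4 measured 65.6, 64.3 and 61.7 RPKM under the KO label, against 85.8, 73.6 and 72.7 RPKM in WT (-0.27, SE 0.069, adjusted p = 0.072). Mki67 measured 6.35, 5.54 and 4.54 RPKM under the KO label, against 6.76, 7.10 and 6.95 RPKM in WT (-0.30, SE 0.10, adjusted p = 0.134). The KO-labelled libraries were the lower for both genes. Both passed without Ly108+ Nr4a1 KO replicate 1, Smc4 at -0.29 (adjusted p = 0.0485) and Mki67 at -0.40 (adjusted p = 0.0282). Plk1, the polo-like kinase gene, measured 3.145, 2.745 and 2.747 RPKM under the KO label, against 1.89, 2.45 and 2.16 RPKM in WT (0.29, SE 0.092, adjusted p = 0.112). Aurkb measured 2.24, 2.18 and 2.135 RPKM under the KO label, against 1.765, 1.58 and 1.53 RPKM in WT (0.28, SE 0.075, adjusted p = 0.0803). Cdc20, with 5.97, 6.03 and 5.33 RPKM under the KO label, against 5.05, 5.13 and 4.89 RPKM in WT, gave 0.17 (SE 0.067, adjusted p = 0.184). For all 3 genes the KO-labelled libraries were the higher.

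The other genes described in every group lay close together. Top2a measured 11.65, 10.1 and 10.3 RPKM under the KO label, against 12.2, 10.7 and 10.75 RPKM in WT (-0.07, SE 0.076). Foxm1 measured 5.76, 5.39 and 5.23 RPKM under the KO label, against 5.29, 5.78 and 5.96 RPKM in WT (-0.05, SE 0.069). Birc5 measured 2.29, 2.25 and 2.38 RPKM under the KO label, against 2.27, 2.55 and 2.25 RPKM in WT (-0.02, SE 0.074). These libraries overlapped. Cdk1 (0.11, SE 0.090), higher in all 3 libraries labelled Nr4a1 KO, Kif11 (0.03, SE 0.080), Racgap1 (0.06, SE 0.064) and Bub1b (-0.00, SE 0.087) gave differences near or under 1 SE, while Cenpa (-0.13, SE 0.050) and Ndc80 (-0.18, SE 0.082) were lower in all 3 libraries labelled Nr4a1 KO without passing. Ccnb1, not tested, measured 0.620 to 0.857 RPKM under the KO label, against 0.645 to 0.778 RPKM in WT. Of the wider lists, Cdca5, the cohesin protector sororin (0.41, SE 0.078, adjusted p = 0.0346), and Cdkn1a (0.34, adjusted p = 0.0496) were higher, and the spindle pole gene Numa1 (-0.26, adjusted p = 0.0402) and Ccnd2 (-0.21, adjusted p = 0.0404) lower, by limma. Cdca5 was 1 of 14 other condensin and cohesin genes tested, Numa1 1 of 21 other spindle and cytokinesis genes, and Cdkn1a and Ccnd2 stood among 15 G1 genes. No gene of the remaining lists passed in limma, while 4.45% of all genes did, so the counts are no result about the lists. The 8 myeloid markers summed to 98.2 to 136.7 RPKM under the KO label, against 63.3 to 79.8 RPKM in WT, with Lyz2 at 63.3 to 91.1 RPKM and 40.1 to 52.0 RPKM. Of 5 myeloid markers tested, 2 passed as higher in limma, Lyz2 (adjusted p = 0.0332) and C1qb (adjusted p = 0.0413), and 0 as lower, while 2.04% of all genes were higher. All KO-labelled libraries lay above all WT libraries for each of these 5, against 14.5% of all genes. Collagen Col1a1 measured 3.82 to 6.32 RPKM under the KO label, against 0.713 to 1.72 RPKM in WT. Of 4 tumour and stromal markers tested, 1 (Col1a1) passed as higher in limma and 0 as lower. All KO-labelled libraries lay above all WT libraries for 2 of these 4, Col1a1 and Col3a1, and below for 1, Pmel. Pmel measured 22.6 to 23.9 RPKM under the KO label, against 24.2 to 25.35 RPKM in WT. Their part in the result was not tested.

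**Figure D5:**
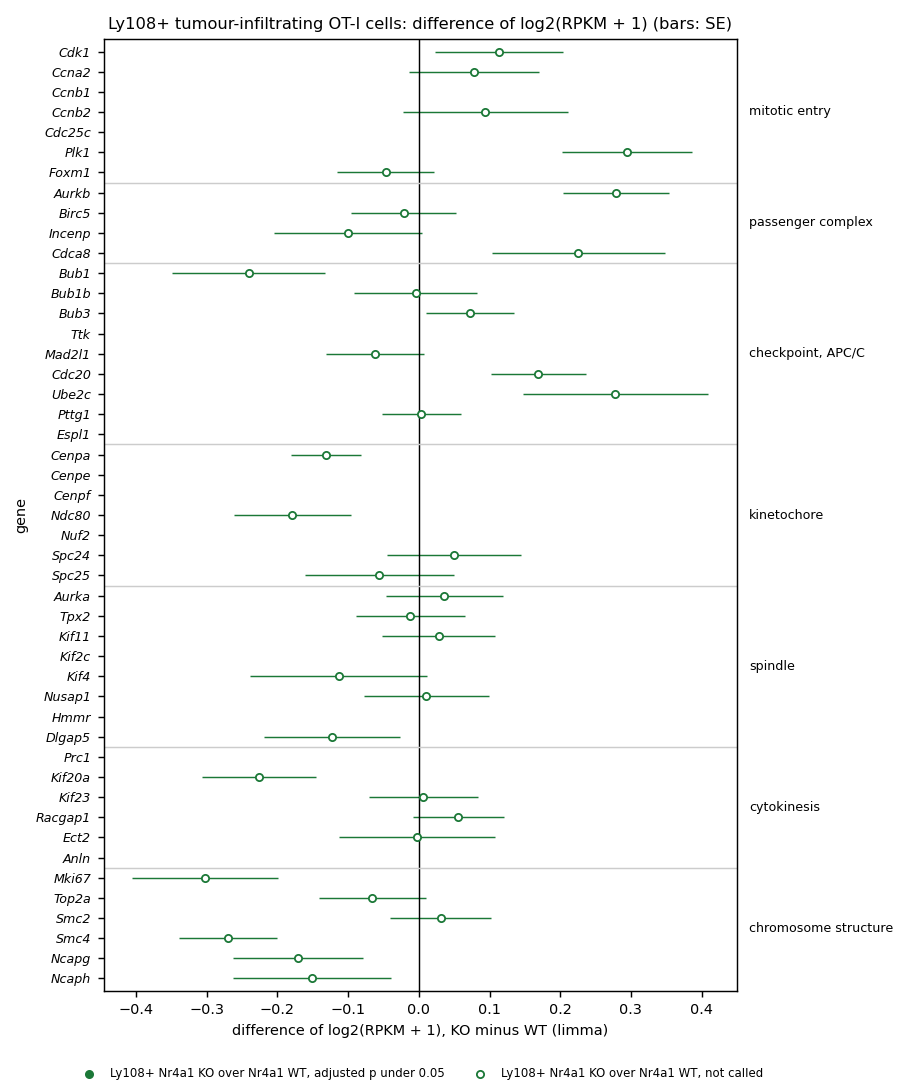
Difference of mean log2(RPKM + 1), Ly108+ cells labelled Nr4a1 KO minus Ly108+ Nr4a1 WT cells, for the 36 genes tested (rows, by role), with bars of 1 SE; rows without a point were under the filter. Points scatter on both sides of 0 between -0.30 and 0.29, and none is filled, since none passed an adjusted p under 0.05.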

How the data were processed

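RNA sequencing values of 18 libraries in 8 groups were analysed. Per the submitters' processing notes, the authors used Trim Galore, HISAT2, edgeR, DESeq2 and build mm10. The read counter, its strand setting and the annotation are not given in the sources used here, and per the labels' protocols the library kit varied with the amount of RNA. The culture table held read counts per gene, deposited by the authors without normalization, and RPKM. The 2 tumour tables held RPKM deposited by the authors, per kilobase of gene and scaled to library size. The log2 fold changes and each p-value deposited by the authors were not used. Columns headed Tex were taken as the Tim-3+ libraries, and 2 columns of no labelled library were not used.

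Counts were tested with edgeR 4.0.16 (filterByExpr, TMM, quasi-likelihood F tests, 1 model of the 8 cultured libraries) and tumour RPKM with limma 3.58.1 (limma-trend on log2(RPKM + 1), keeping genes that reached 1 RPKM in a number of libraries no lower than the size of the smaller group), in R 4.3.3, with Benjamini-Hochberg adjustment over all genes tested and a threshold of 0.05. Scripts were tested on simulated data. Whole reads were recovered from the RPKM steps: of values under 200 reads, 97.8% to 98.9% came out within 0.05 of a whole number, for the genes with a length (88.8% and 95.6% of the tables). On these reads edgeR called 31 genes of the set lower in Nr4a1RFP+ cells and 2 in Ly108+ cells labelled Nr4a1 KO; DESeq2 1.42.0 called 38 and 2. Alternatives were RLE scaling, DESeq2, other filters, a pseudocount of 0.1, rescaling by median ratios, a replicate block, fits to only the libraries compared and leaving out each library.

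The members, roles and lists were chosen with earlier results of these data known. Named were Nr4a1, 12 genes across all groups, the genes of smallest p per role (up to 2 that passed, or else 1), genes that moved against most of the called ones, up to 3 per direction and other list, and the rest of the complexes described. Positions are from GENCODE M21 (GRCm38). Exons of other genes on the same strand overlap Foxm1 (Gm44596 and Tex52) and Top2a (Gm23451). Exons on the opposite strand overlap Ccna2, Cdc25c, Plk1, Cdca8, Cdc20, Ube2c, Kif4, Nusap1, Prc1, Kif20a and Ncapg. Annotated pseudogenes exist for Ccnb1, Ccnb2 and Kif4. The counts of all these genes may hold reads of the overlapping genes or pseudogenes.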

Additional observations from a re-analysis of the deposited data

Results flagged for a closer look

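For 3 genes the difference by Nr4a1 label had opposite signs in Ly108+ cells and in culture, with every library labelled Nr4a1 KO above every WT library in tumours and below it in culture. The difference between the settings was not tested, because the tables were normalized separately. Plk1 gave 0.2945 in Ly108+ cells and -0.68 in culture. Aurkb gave 0.2792 in Ly108+ cells and -0.51 in culture. Cdc20 gave 0.1691 in Ly108+ cells and -0.84 in culture. In Ly108+ cells none of the 3 passed in limma after adjustment. Of the genes of the set tested there, 4 of 36 lay fully above, against 14.5% of all genes, so such an ordering is no result about the set; in culture 44 of 47 lay fully below, against 37.2% of all genes.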

How the results depend on the processing

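In culture the counts of lower genes kept within 1.5 times under every alternative. The 1 gene higher under the cultured KO label became 0 with DESeq2, and 0 to 1 without 1 library in turn. For Nr4a1RFP+ against Tim-3+ cells, the 12 lower genes became 3 with no filter, 31 by edgeR and 38 by DESeq2 on recovered reads (DESeq2 chosen after seeing the data), 31 with the replicate block, and 2 to 40 without 1 library in turn; higher genes were 0 to 1. For Ly108+ cells, lower genes became 2 by edgeR and 2 by DESeq2 on recovered reads, and 0 to 2 without 1 library in turn. The cause was not tested, except that a lone library in a group leaves the spread to the other group. With a pseudocount of 0.1, the difference in mean log2 level moved to -0.44 (Nr4a1-OV minus RV-GFP) and -1.65 (RV-GFP minus Nr4a1 WT), and that of Nr4a1RFP+ minus Tim-3+ libraries to -0.80 (-0.63 with a pseudocount of 1), by less than the SD of 0.424 between the Tim-3+ libraries.

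Same-numbered libraries deviated together by r across genes of 0.0513 (Nr4a1-OV and RV-GFP), 0.0295 (cultured KO and WT), 0.219 (Nr4a1RFP+ and Tim-3+) and 0.216, 0.0929 and 0.00748 (Ly108+), and the labels give no shared source, so the numbers were not taken as pairs. With the replicate block, Aurkb, Kif11, Racgap1, Bub1b and Ccnb1 also passed as lower in Nr4a1RFP+ cells (adjusted p = 0.0111 to 0.0445).

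Of the single-gene values, 1237 kept direction and call, 33 passed newly, 38 were lost and 9 turned sign, all small, with these ranges as each library was left out: Ndc80 in Nr4a1-OV -0.052 (without RV-GFP replicate 2) to 0.064, Cdk1 under the cultured KO label -0.147 to 0.00518 (0.00322 without KO replicate 2, 0.00518 without WT replicate 1), Cenpa there -0.0332 (without WT replicate 1) to 0.0726, the Mki67 difference of effects -0.228 to 0.0459 (without Nr4a1-OV replicate 2), and in Ly108+ cells Birc5 -0.0448 to 0.0194 (without WT replicate 2), Bub1b -0.0381 to 0.0519 (without WT replicate 2; 0.0513 without KO replicate 3) and Kif11 -0.0403 (without KO replicate 1) to 0.0659. Depth limits genes near or under 1 RPKM, which the filter left out of the tumour tests.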

Other observations

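Within a library, the ratio of 2 genes per length does not depend on library scaling. Of the pairs examined, 3 are given here, and others varied widely across groups too. Ndc80 over Nuf2, not among these 3, averaged 0.4125 in RV-GFP and 6.37 in Ly108+ Nr4a1 WT, where Nuf2 averaged 0.439 RPKM. Smc4 over Smc2 averaged 7.23 in Nr4a1-OV and 2.74 in RV-GFP, 1.91 in the libraries labelled Nr4a1 KO and 2.55 in cultured Nr4a1 WT, 7.81 in Nr4a1RFP+ and 3.51 in Tim-3+, and 13.3 in Ly108+ Nr4a1 KO and 16.6 in Ly108+ Nr4a1 WT. Pttg1 over Espl1, securin over separase, averaged 2.56 in Nr4a1-OV and 0.888 in RV-GFP, 1.35 under the cultured KO label and 0.763 in WT, and lay between 22.5 and 90.2 in each tumour library. Cenpa over Cenpf averaged 8.73 in Nr4a1-OV and 4.86 in RV-GFP, 6.31 under the cultured KO label and 4.84 in WT, and lay between 33.2 and 227.7 in each tumour library. Cenpf averaged only 0.214 RPKM in Ly108+ Nr4a1 KO, 0.217 in Ly108+ Nr4a1 WT and 0.55 in Nr4a1RFP+ cells. Espl1 averaged 0.634, 0.562 and 0.907 RPKM in the same groups. The ratios over these low levels are imprecise. Gene lengths and library kits may differ between tables, and their part in these ratios was not tested.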
